A study of Arabidopsis thaliana with 6 samples.

Results

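The genes described here are those encoded in the chloroplast genome of Arabidopsis thaliana, taken as every row of the deposited gene table whose locus identifier starts with ATCG. They made up 130 of the 21693 rows, of which 85 were protein-coding, 8 were ribosomal RNA (rRNA) and 37 were transfer RNA rows. RNA-seq was performed on shoots of 8-day-old seedlings, with 3 wild-type (WT) and 3 phod1 mutant libraries. All seedlings grew at 23 °C (16 h light, 8 h dark) on nutrient-rich plates of 1/2 MS medium, which held 1.1% agar and 1.0% sucrose. The labels used here do not give the gene or allele affected in phod1, the ecotype, or the independence of the cultures behind the libraries; p-values cover no more than the variation among these 6 libraries, part or all of which may be technical. The title of the study concerns SHORT-ROOT, a transcription factor, and PHOSPHATE1, a phosphate exporter.

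The chloroplast genome keeps a small set of genes for the core subunits of the photosynthetic complexes, for the large subunit of Rubisco, and for part of the machinery that expresses them. Most other subunits of the same complexes are made from nuclear genes and imported. Chloroplast genes are read by the plastid-encoded RNA polymerase (PEP), whose core subunits are the products of rpoA, rpoB, rpoC1 and rpoC2 and whose promoter recognition depends on nuclear-encoded sigma factors, and by a nuclear-encoded single-subunit polymerase (NEP). Most are cotranscribed in groups and the long transcripts are then cut, edited and trimmed.

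The libraries held 33183463 to 54720319 counted units, where the spacing of the low values placed about 4 units to 1 sequenced fragment. Levels are given as CPM (counts scaled to a common library total), scaled between libraries by the trimmed mean of M-values (TMM). Markers of leaf mesophyll were abundant, the 5 genes of that list together reaching 37102 to 42603 CPM in the WT libraries, and 18436 to 20653 CPM in those of phod1. The sum of 3 genes for shoot meristem and epidermis lay between 168 and 178 CPM in WT, and between 123 and 161 CPM in phod1, most of it from the epidermal gene ATML1. The members of that sum did not move together: ATML1 fell (log2 fold change -0.59, adjusted p = 0.0424), the meristem gene STM rose from a mean of 2.56 to 7.34 CPM (1.52, adjusted p = 0.00290), and the guard cell gene FAMA, with means of 13.9 and 34.7 CPM, did not pass (1.32, adjusted p = 0.0588). Whether cell makeup differed between the genotypes, and its part in the chloroplast values, was not tested. A list of 7 root markers added up to between 0.436 and 1.404 CPM for WT and between 1.22 and 2.00 CPM for phod1, with 6 under 1 CPM in every library and 1 at 0 throughout. Part of the spread in chloroplast transcripts moved with single libraries, as given with the values below.

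Chloroplast-encoded rows took a small share of each library. It was 0.380%, 0.274% and 0.135% of all counts in WT 1, 2 and 3, and 0.260%, 0.154% and 0.242% in phod1 1, 2 and 3. The 2 genotypes overlapped, and the highest and the lowest share were both found in WT. Between 75.1% and 90.1% of these counts lay on rRNA rows. The protein-coding rows alone took 0.0361%, 0.0341% and 0.0319% of the counts in WT 1, 2 and 3 and 0.0307%, 0.0260% and 0.0287% in phod1 1, 2 and 3, so that every WT library stood above every phod1 library. These are 8629 to 18647 units per library. The sources used here do not state how RNA was selected for the libraries; chloroplast messengers mostly lack long poly(A) tails, and a share measured here is that of the libraries and not of the tissue.

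In phod1 the chloroplast transcripts that passed the test were all lower, and they belonged to photosystem II, the ATP synthase, the plastid RNA polymerase and the ribosome. Of 80 members with enough counts to be tested, 6 were lower, none was higher and 74 did not pass (edgeR's quasi-likelihood test, Benjamini-Hochberg adjustment over 10803 genes, threshold 0.05). The 6 are 7.5% of the tested members, against 13.0% of all tested genes called lower, while 14.6% were called higher and 27.7% passed in either direction. Members were mostly of low abundance, with a median of 1.57 CPM against 20.5 CPM for all tested genes. Among the 71 tested members with a mean under 10 CPM, 4 were lower (5.63%), beside 7.33% of the 3617 genes under that level, a limit set after the values were seen. In this fit the share called was therefore not above the background of the whole table. With the values divided by 4, to about 1 fragment per unit, 8 of 46 tested members were lower, beside 1420 of 9820 genes. The share of members was then slightly the larger.

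The direction of the members was less mixed than the count of calls. The log2 fold change of phod1 over WT was negative for 71 of 80 tested members (88.75%) and for 49.1% of all tested genes. Its median was -0.56 for the members and 0.0135 for all tested genes. At an unadjusted p under 0.05 there were 15 of the 80 members, all lower, beside 18.9% of all tested genes lower and 20.4% higher at that threshold, so that the share of lower members was near the background. In 25 of the 80 (31.25%) every WT library lay above every phod1 library, beside 22.9% of all tested genes; the reverse order was found in none, beside 24.7%. Many of the members share a transcript and the copies of the inverted repeat share reads, so that they are not independent of each other. Less RNA per chloroplast, fewer chloroplasts and fewer chloroplast-rich cells cannot be told apart in whole shoots.

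The direction depends on what the members are measured against. Without the TMM factor, which was 0.856 to 0.910 in WT and 1.11 to 1.17 in phod1, the median of all genes moved to 0.40 on the log2 scale and that of the members to -0.18, with 45 of 80 negative; 5.62% of all tested genes were then called lower and 33.2% higher. Set against the median of all genes, the members stood at -0.58 on either scale. A scaling factor shifts all genes nearly alike, so this distance stays the same by construction and is no separate support. When counts were taken relative to the summed protein-coding chloroplast counts of each library, the members' median was 0.07. That total is made of members themselves, so a median near 0 follows from the scale and does not test the direction. Of that total, 41.5% to 48.5% lay on atpE, psbA, rbcL and rpoB. The fold changes below are therefore relative to the bulk of the transcriptome.

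**Figure D1:**
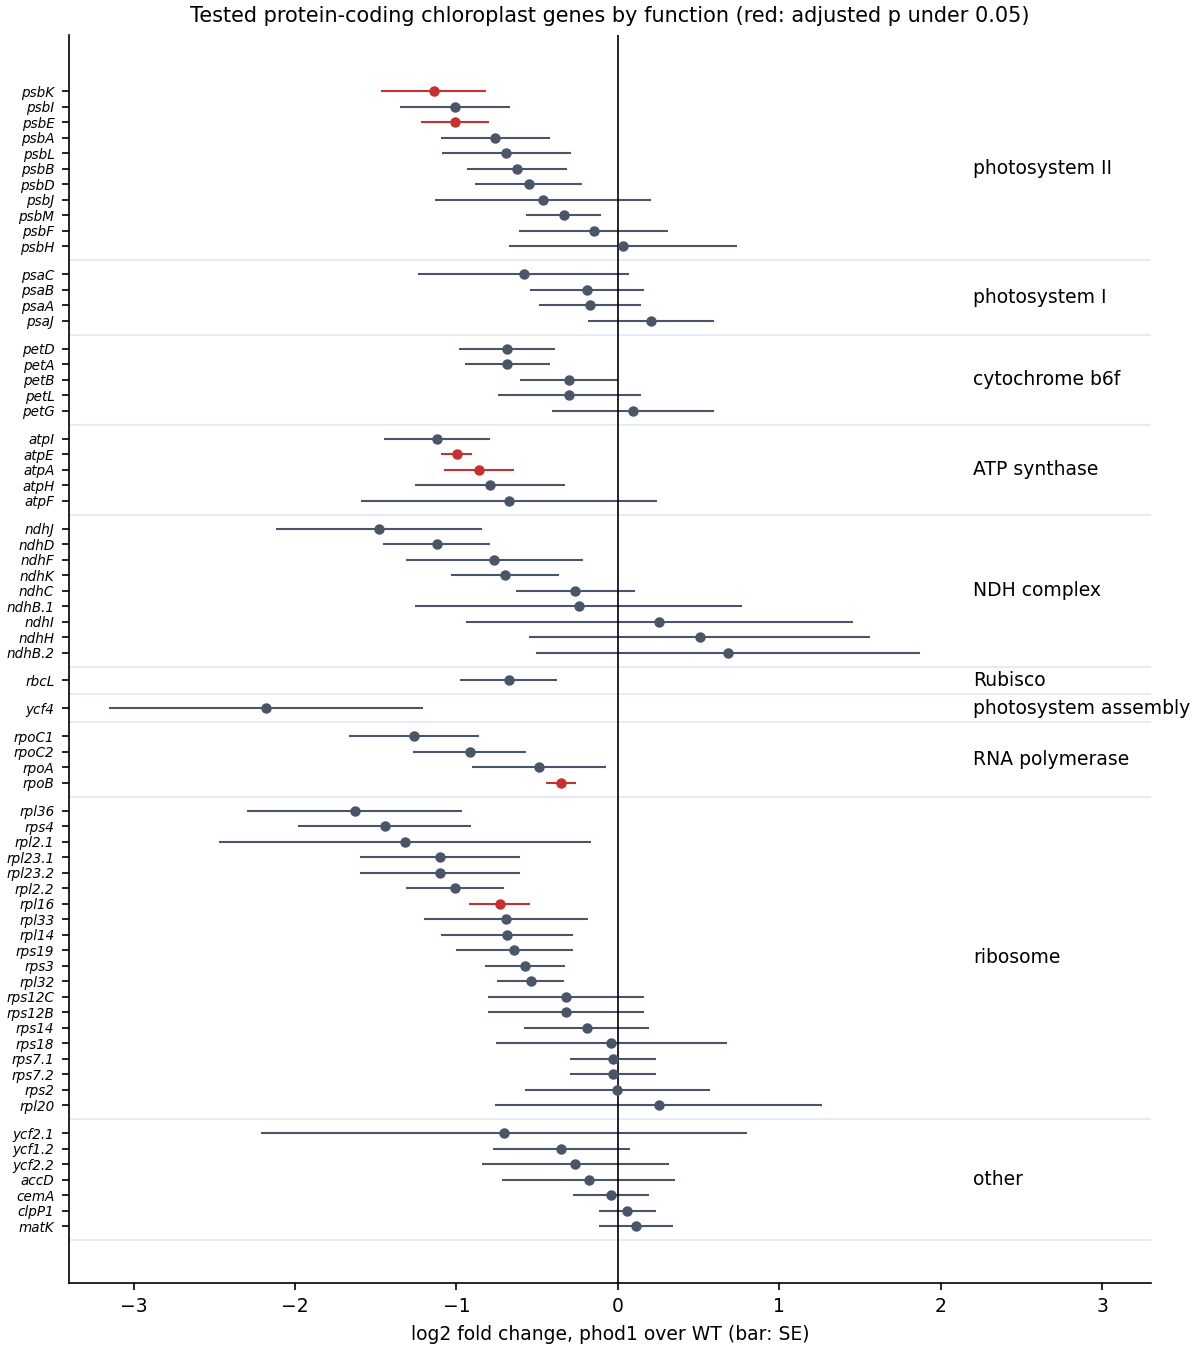
Log2 fold change of phod1 over WT (horizontal axis) for 67 of the 69 tested protein-coding chloroplast genes, grouped by function, each point a gene with its standard error as a bar and genes with an adjusted p under 0.05 in red. The 6 red points lie left of 0, and 58 of the 67 genes have a negative value; without the TMM factor the whole plot shifts to the right, as given in the text.

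The ATP synthase makes ATP from the proton gradient across the thylakoid membrane; its chloroplast genes are atpA, atpB and atpE of the catalytic head and atpF, atpH and atpI of the membrane part. Of the 5 rows of this group, 2 were lower and 3 did not pass, and the median log2 fold change was -0.86. All 5 were negative also without the TMM factor and relative to the chloroplast total.

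atpE (ATCG00470), for the epsilon subunit, was the most abundant protein-coding row. It was at 51.6, 58.5 and 58.7 CPM in WT 1, 2 and 3 and at 29.2, 26.5 and 28.7 CPM in phod1 1, 2 and 3. The groups stood well apart and the libraries of each were close together. Its log2 fold change was -0.999 (SE 0.0988, adjusted p = 0.00150, edgeR's quasi-likelihood test). It was the only member called lower whichever library was left out, with log2 values between -1.06 and -0.96, and the only one called without the TMM factor, at -0.61. Relative to the chloroplast total its value was -0.36 and it did not pass. The coding sequence of atpE overlaps that of atpB, the beta subunit, by 4 bases on the same strand in the TAIR10.1 annotation and both lie on a shared transcript; atpB has no row of its own and is not analysed here, so that reads of the pair cannot be told apart.

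atpA (ATCG00120), for the alpha subunit, was at 9.40, 11.6 and 13.6 CPM in WT and at 7.42, 5.01 and 6.61 CPM in phod1. No phod1 library reached the lowest WT library. Here the log2 fold change was -0.86 (SE 0.214, adjusted p = 0.0322). It passed without WT 1 or without phod1 1 and did not pass when any of the other 4 libraries was left out (adjusted p from 0.0767 to 0.0839).

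atpA is the last gene of the unit atpI-atpH-atpF-atpA, and the 3 genes before it did not pass. atpI, for the a subunit of the proton channel, was at 4.16, 4.45 and 2.95 CPM in WT and 1.30, 1.46 and 2.56 CPM in phod1, without overlap (log2 fold change -1.12, SE 0.330, adjusted p = 0.0545). atpH, for the ring-forming c subunit, ranged from 1.89 to 5.15 CPM in WT and from 1.22 to 2.75 CPM in phod1, with a log2 fold change of -0.79. atpF, for a stator subunit, ranged from 0.705 to 4.09 CPM in WT and from 0.240 to 2.42 CPM in phod1, and its value of -0.67 had a standard error of 0.919. Only the direction was shared along this unit.

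**Figure D2:**
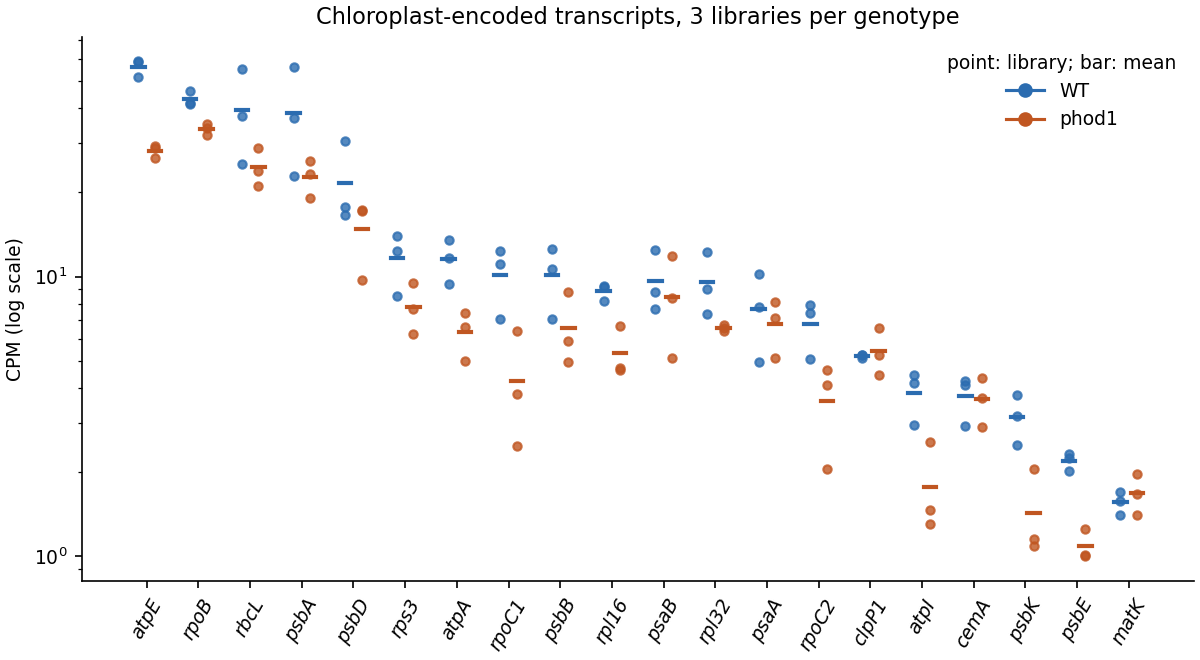
Level of 20 chloroplast-encoded genes in CPM on a log axis, in each of the 3 WT (blue) and 3 phod1 (orange) libraries, each point a library and each bar the mean of a genotype. atpE separates the genotypes with little spread, psbA and rbcL overlap, with WT 3 near the phod1 libraries, and clpP1, cemA and matK overlap throughout.

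Photosystem II splits water and passes electrons into the photosynthetic chain, and its core subunits are made in the chloroplast. Of 14 rows, 11 were tested, 2 were lower and 9 did not pass, with a median log2 fold change of -0.62. Relative to the chloroplast total the median was 0.03. The summed level of the group was 112, 80.1 and 59.7 CPM in WT 1, 2 and 3 and 56.5, 41.5 and 58.9 CPM in phod1 1, 2 and 3, so that WT 3 stood next to the highest phod1 library.

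psbE (ATCG00580), for the alpha subunit of cytochrome b559, was at 2.32, 2.02 and 2.25 CPM in WT and at 1.25, 1.00 and 1.01 CPM in phod1. The groups were apart although the level was low, and the log2 fold change was -1.01 (SE 0.213, adjusted p = 0.0188). It passed without WT 2 or without phod1 1, and leaving out any of the other 4 libraries ended the call (adjusted p from 0.0512 to 0.0644). The genes behind it on the same transcript did not pass: psbF, the beta subunit of the same cytochrome, had a log2 fold change of -0.15, psbL -0.69 and psbJ -0.46, all at means under 1 CPM. For psbF the sign turned without the TMM factor (0.23).

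psbK (ATCG00070) and psbI, for small membrane subunits, form another unit. psbK was at 3.19, 3.79 and 2.51 CPM in WT and at 1.09, 1.16 and 2.05 CPM in phod1, and changed by -1.14 on the log2 scale (SE 0.327, adjusted p = 0.0496). It lay at the edge of the threshold and passed in 1 of the 6 fits that left out a library, that without phod1 3 (adjusted p = 0.0281). psbI was at 2.25, 4.06 and 2.70 CPM in WT and 1.33, 1.13 and 2.03 CPM in phod1, with a log2 fold change of -1.01 that did not pass (adjusted p = 0.0797). Neither gene overlapped between the genotypes.

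psbA, for the D1 protein of the reaction centre that is replaced continually in the light, was at 56.0, 36.8 and 22.8 CPM in WT 1, 2 and 3 and at 25.9, 19.1 and 23.3 CPM in phod1. WT 3 lay below 2 of the 3 phod1 libraries. The log2 fold change was -0.76 (SE 0.336, adjusted p = 0.157), and it was -1.02 without WT 3, where it passed (adjusted p = 0.0402), and -0.39 without WT 1. psbD, for the D2 protein, was at 30.5, 17.8 and 16.7 CPM in WT and 17.3, 9.76 and 17.2 CPM in phod1, with a log2 fold change of -0.55 that did not pass (adjusted p = 0.281). The psbD sequence overlaps that of psbC by 53 bases on the same strand; psbC has no row and is not analysed here. psbB, for the antenna protein CP47, had a log2 fold change of -0.62 (adjusted p = 0.197). psbH, at means under 1 CPM, had the highest value of the group, 0.03 with a standard error of 0.704.

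rbcL, for the large subunit of the carbon-fixing enzyme Rubisco, varied among WT libraries as psbA did. It was at 55.2, 37.4 and 25.2 CPM in WT 1, 2 and 3 and at 28.8, 21.2 and 23.8 CPM in phod1. The log2 fold change was -0.68 (SE 0.302, adjusted p = 0.159). It was -0.35 without WT 1, and -0.91 without WT 3, where it passed (adjusted p = 0.04999).

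Photosystem I delivers electrons to ferredoxin. None of its 4 tested rows passed, and the median log2 fold change was -0.18, which turned to 0.21 without the TMM factor. psaB was at 12.5, 8.79 and 7.64 CPM in WT and at 11.8, 5.11 and 8.39 CPM in phod1; psaA, which shares its transcript and forms the reaction centre with it, was at 10.2, 7.77 and 4.95 CPM and at 8.13, 5.11 and 7.12 CPM. The genotypes overlapped in both, with log2 fold changes of -0.19 and -0.17. psaC, for the iron-sulphur subunit, had a value of -0.58 and psaJ 0.21, both with wide errors (0.656 and 0.388).

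The cytochrome b6f complex links the photosystems. None of its 5 tested rows passed, at a median log2 fold change of -0.30 that was 0.08 without the TMM factor. petA, for cytochrome f, was at 3.49, 2.23 and 2.73 CPM in WT and at 1.41, 2.13 and 1.71 CPM in phod1, without overlap (log2 fold change -0.68, adjusted p = 0.113). petB, for cytochrome b6, had a value of -0.30, petD, for subunit IV, -0.69, and petG 0.09. The sign for petB turned without the TMM factor.

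The NDH complex carries cyclic electron flow around photosystem I. None of the 9 tested of its 12 rows passed, and the median log2 fold change of -0.26 was 0.12 without the TMM factor. ndhD was at 3.39, 2.74 and 2.02 CPM in WT and at 1.41, 0.822 and 1.52 CPM in phod1, without overlap, and just missed the threshold (log2 fold change -1.12, SE 0.332, adjusted p = 0.0549). ndhK had a value of -0.70 and ndhJ, the lowest, -1.48. The highest, 0.68 for ndhB.2, had a standard error of 1.19; the 2 copies of ndhB in the inverted repeat differed by up to 20 units in a library, and their sum gave 0.19. ycf4, a photosystem I assembly factor, had the lowest log2 fold change of all members, -2.18 (SE 0.972, adjusted p = 0.159), at 0.436, 0.617 and 0.514 CPM in WT and 0.260, 0 and 0.0800 CPM in phod1. ycf3, the other assembly gene, was at or under the floor of 3 fragments in every library.

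The plastid-encoded RNA polymerase is built from 4 chloroplast genes, and all 4 had negative log2 fold changes with a median of -0.70, 3 of them also without the TMM factor and 2 relative to the chloroplast total. Only rpoB passed. rpoB (ATCG00190), for the beta subunit, was at 41.8, 46.1 and 41.4 CPM in WT and at 34.0, 35.2 and 32.1 CPM in phod1. The groups were apart and the difference was small, as the log2 fold change was -0.35 (SE 0.0932, adjusted p = 0.0393), and it was 0.04 without the TMM factor and 0.30 relative to the chloroplast total, where it did not pass. It also did not pass without any single library, with adjusted p of 0.0643 to 0.120.

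The genes downstream of rpoB on the same transcript had larger and more variable values. rpoC1, for the beta' subunit, was at 7.05, 11.1 and 12.3 CPM in WT and at 3.80, 6.42 and 2.48 CPM in phod1 (log2 fold change -1.26, SE 0.403, adjusted p = 0.0688). rpoC2, for the beta'' subunit, was at 5.07, 7.89 and 7.39 CPM in WT and at 2.06, 4.62 and 4.10 CPM in phod1 (log2 fold change -0.92, SE 0.351, adjusted p = 0.110). Neither overlapped between genotypes. rpoA, which lies in the ribosomal protein cluster, ranged from 1.68 to 5.14 CPM in WT and from 2.27 to 2.94 CPM in phod1, with a value of -0.49. Per kilobase of coding sequence, the WT level along the unit was 13.4 CPM for rpoB, 4.97 CPM for rpoC1 and 1.64 CPM for rpoC2. On the same scale psbA reached 36.3 CPM and rbcL 27.3 CPM, with atpE at 141 CPM where reads of atpB may be included.

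The chloroplast ribosome is bacterial in type, and part of its proteins are chloroplast-encoded. Of 25 rows, 22 were tested, 1 was lower and 21 did not pass. The median log2 fold change was -0.61, and 21 of the 22 values were negative, 13 without the TMM factor. The summed level of the group was 71.0, 74.2 and 75.3 CPM in WT and 48.7, 39.1 and 47.0 CPM in phod1, without overlap.

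rpl16 (ATCG00790), of the large subunit, was at 9.26, 9.21 and 8.16 CPM in WT and at 6.67, 4.65 and 4.72 CPM in phod1. The groups did not overlap, with a difference of -0.73 on the log2 scale (SE 0.187, adjusted p = 0.0351). The call held in 1 of the 6 fits that left out a library, that without phod1 1; in the other 5 the adjusted p was 0.0631 to 0.102. The rest of the cluster from rpl23 to rpoA did not pass. Its 10 tested genes all had negative values, with a median of -0.68 and the lowest, -1.63, for rpl36.

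Among these neighbours rps3 was at 8.56, 12.4 and 13.97 CPM in WT and at 6.25, 7.68 and 9.51 CPM in phod1, which overlapped (log2 fold change -0.57, adjusted p = 0.146). The rps3 sequence overlaps that of rpl22, which has no row and is not analysed here, by 16 bases on the same strand. rpl14 had a value of -0.69, rps19 -0.64 and rpl23.1 -1.10. rpl2.1 lay between 7.90 and 11.3 CPM in the WT libraries and was at 6.49, 0.0514 and 5.57 CPM in phod1. It was nearly absent in phod1 2 alone; its copy in the other repeat, rpl2.2, was at 2.82 CPM there, and the 2 copies summed gave a log2 fold change of -1.16 that did not pass. Outside the cluster, rpl32 had a value of -0.54 (adjusted p = 0.114) and rpl20, the highest of the group, 0.25 with a standard error of 1.01.

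The 8 rRNA rows were dominated by 16S and 23S rRNA, the RNA cores of the small and large subunits. 16S rRNA (the copy rrn16.1) was at 877, 516 and 210 CPM in WT 1, 2 and 3 and at 411, 223 and 411 CPM in phod1. 23S rRNA (the copy rrn23.1) was at 1120, 873 and 345 CPM in WT and at 578, 313 and 543 CPM in phod1. WT 1 and WT 2 lay high; WT 3 lay below every phod1 library for 16S rRNA and between them for 23S rRNA. The log2 fold changes were -0.62 (SE 0.536) and -0.70 (SE 0.467), and none of the 6 tested rRNA rows passed. Copies of the same rRNA differed by at most 10 units in any library, so that they count as 1 measurement.

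Most transfer RNA rows were at the floor: 29 of 37 held 3 fragments or fewer in every library. The 5 that could be tested did not pass and had a median log2 fold change of -0.37. ATCG00450 was the most abundant, at 11.4, 9.96 and 11.8 CPM in WT and at 7.21, 8.47 and 9.94 CPM in phod1.

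Of the 7 tested genes of other functions none passed, at a median log2 fold change of -0.18. clpP1, for a subunit of the chloroplast protease Clp, was at 5.24, 5.13 and 5.27 CPM in WT and at 5.26, 4.47 and 6.56 CPM in phod1. matK, for a splicing factor encoded inside an intron, was at 1.41, 1.57 and 1.70 CPM in WT and at 1.41, 1.98 and 1.68 CPM in phod1. The genotypes overlapped in both, with log2 fold changes of 0.06 (SE 0.177) and 0.11 (SE 0.230). cemA, for an envelope membrane protein, had a value of -0.04 (SE 0.236) and accD, for a subunit of the acetyl-CoA carboxylase of fatty acid synthesis, -0.18 (SE 0.536); without the TMM factor these were 0.34 and 0.20. ycf2.1 had the lowest value of the group, -0.70, with a standard error of 1.51 and 2 libraries at 0. Relative to the chloroplast total, clpP1 was the 1 member called higher, at 0.69 (adjusted p = 0.0260), on a scale where 44.5% of all tested genes were called higher and 3.07% lower.

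The spread among the 3 WT libraries differed between transcripts. WT 1 was the highest and WT 3 the lowest WT library for 16S and 23S rRNA, psbA, rbcL, psbD, psbB, psaA and psaB. This order was found in all for 11 of the 42 protein-coding members with a mean of at least 1 CPM. These include psaA and psaB, which share a transcript, and both copies of rpl2. The share of all genes in this order was not counted. The highest WT library was 4.17 times the lowest for 16S rRNA, 2.45 times for psbA and 2.19 times for rbcL. The same ratio was 1.14 for atpE, 1.12 for rpoB and 1.03 for clpP1, while rpoC1, atpA and rps3 were lowest in WT 1 and highest in WT 3. Across phod1 libraries 16S rRNA, psbA and psbD were lowest in phod1 2. The part of this spread in the fold changes above was not tested beyond leaving out each library.

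**Figure D3:**
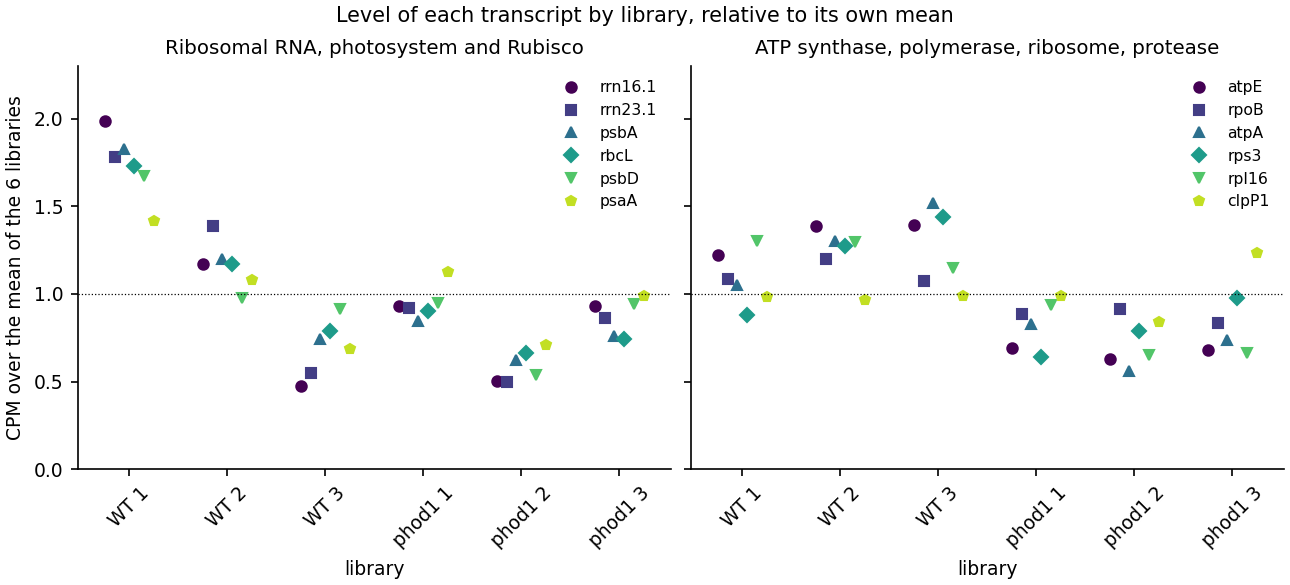
Level of each transcript in each library (horizontal axis, 3 WT and 3 phod1) divided by its own mean over the 6 libraries, each symbol a gene. In the left panel (rRNA, photosystem genes and rbcL) WT 1 is highest and WT 3 falls at or among the levels of the phod1 libraries, while in the right panel atpE and rpoB stay above 1 in all WT libraries and below 1 in all phod1 libraries.

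Grouped by promoter type, as known from plastid genetics, the 8 members assigned to PEP (among them psbA, rbcL, psaA and psbE) had a median log2 fold change of -0.59, with 1 called lower. The 6 members assigned to NEP, the rpoB unit among them, had a median of -0.53, also with 1 called lower. The 3 tested members with both kinds of promoter had a median of -0.76. All 8 PEP members and all 6 NEP members were negative with the TMM factor, without which psaA, psaB, petB, rpoB, accD and ycf2.2 turned positive, and the difference between the classes was not tested. The members of a class are not independent. For NEP, rpoB, rpoC1 and rpoC2 share a transcript, and ycf2.1 and ycf2.2 are copies of 1 gene. For PEP, psaA and psaB share a transcript, as do psbB and petB.

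The authors' deposited table of genes that differed between the genotypes listed 12 chloroplast-encoded genes, all with negative log2 fold changes. They were the 6 genes called here together with atpI, rpl2.2, ndhD, rpoC1, psbI and rps4. In the authors' deposited table the values ranged from -0.36 for rpoB to -1.46 for rps4. DESeq2 run on the counts here called the same 12 genes, beside 15.8% of all tested genes called lower, 16.4% called higher and 32.2% in either direction by that tool. Its value for atpE (-1.00949, SE 0.114745) equalled the deposited one to the last digit. The match therefore repeats a computation on the same counts and is no separate support. In edgeR's quasi-likelihood test the 6 additional genes had adjusted p of 0.0545 to 0.101.

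Nuclear genes whose products work with the chloroplast-encoded ones were examined as 7 lists, since the complexes are built from both genomes. Of 98 tested genes in these lists, 53 were lower, 3 were higher and 42 did not pass, beside 13.0% of all tested genes lower and 14.6% higher. The median log2 fold change of the lists was -0.63 with the TMM factor. The share that passed was larger than among the chloroplast-encoded genes, at levels that were mostly far higher, so that the counts of calls are not comparable.

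Nuclear subunits of the photosystems had the lowest median of the 7 lists, at -1.03 with 15 of 21 lower, beside -0.62 and -0.18 for the chloroplast-encoded subunits of photosystem II and photosystem I. In the lists of the NDH complex, 11 of 15 were lower (median -0.79). Of the nuclear subunits of the cytochrome b6f complex, ATP synthase and Rubisco, 3 of 5 were lower (median -0.80). RBCS1A, a further row of that list, was not tested. It was at 18088 CPM in WT 1 and at 0 to 0.0267 CPM in the other libraries. Some genes that did not pass had a library out of line, such as NDHM, at 0, 223 and 156 CPM in WT 1, 2 and 3. Of the nuclear-encoded proteins of the chloroplast ribosome, 17 of 27 were lower, with a median of -0.62, beside -0.61 for the chloroplast-encoded ones; without the TMM factor 5 of the 27 were lower, and relative to the chloroplast total none was and the median was 0.03. With the TMM factor no gene of these 4 lists was higher, while relative to the chloroplast total 1, a ribosomal protein gene, was. Of all tested genes, 5.62% were lower without the TMM factor, and 3.07% were lower and 44.5% higher relative to the chloroplast total. Whether nuclear and chloroplast subunits differed was not tested.

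Of the 6 sigma factors, which direct the plastid-encoded polymerase to its promoters, 5 fell in phod1, beside 3 (SIG1, SIG2 and SIG5) without the TMM factor and 2 (SIG1 and SIG5) relative to the chloroplast total. Of all tested genes, 13.0% were lower with the TMM factor, 5.62% without it and 3.07% relative to the chloroplast total. SIG5, known for its response to light and stress and for transcription of psbD, was at 77.0, 76.8 and 91.4 CPM in WT and at 27.4, 26.5 and 29.7 CPM in phod1 (log2 fold change -1.55, SE 0.111, adjusted p = 0.00054). SIG1 was at 193, 192 and 196 CPM in WT and at 80.5, 77.9 and 80.4 CPM in phod1 (log2 fold change -1.28). The libraries of each genotype were close and the genotypes far apart in both. SIG2, SIG3 and SIG4 were also lower, at -0.97, -0.59 and -0.63. SIG6 did not pass at -0.27. RPOTP, the nuclear-encoded plastid polymerase, was at 45.8, 47.8 and 36.8 CPM in WT and at 98.9, 67.9 and 57.0 CPM in phod1, without overlap, and just missed the threshold (log2 fold change 0.78, SE 0.232, adjusted p = 0.0560). RPOTP was called higher without the TMM factor and relative to the chloroplast total, where 33.2% and 44.5% of all tested genes were called higher.

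Proteins bound to the plastid-encoded polymerase did not share this direction. None of 11 was lower, 3 were higher and 8 did not pass, with a median of 0.07. Without the TMM factor 5 were higher (median 0.47), and relative to the chloroplast total 9 were (median 0.74). Of all tested genes, 14.6% were higher with the TMM factor, 33.2% without it and 44.5% relative to the chloroplast total. FSD3, an iron superoxide dismutase of the nucleoid, was at 41.4, 39.9 and 46.5 CPM in WT and at 64.6, 65.7 and 73.0 CPM in phod1 (log2 fold change 0.67, SE 0.102, adjusted p = 0.00656). FLN1, a fructokinase-like protein, rose by 0.43 and PTAC12, also known as HEMERA, by 0.38. PTAC7 was at 0.369, 136 and 0.225 CPM in WT and at 122, 114 and 128 CPM in phod1, so that 2 WT libraries held almost none; it did not pass.

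Of 12 genes for plastid RNA-binding and RNA-degrading proteins, 2 were lower, none was higher and 10 did not pass, with a median of -0.21. Among all tested genes 13.0% were lower and 14.6% higher, so that the share called lower in this list was near the background. Without the TMM factor 1 was lower and 3 were higher (median 0.18), and relative to the chloroplast total 1 was lower and 5 were higher. Of all tested genes, 5.62% were lower and 33.2% higher without the TMM factor. Relative to the chloroplast total these shares were 3.07% and 44.5%. CSP41A, an RNA-binding protein that stabilises chloroplast transcripts, was at 1214, 1308 and 1271 CPM in WT and at 647, 586 and 588 CPM in phod1 (log2 fold change -1.06, SE 0.0723, adjusted p = 0.000476). CP29B, a ribonucleoprotein, was also lower, at -0.57.

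**Figure D4:**
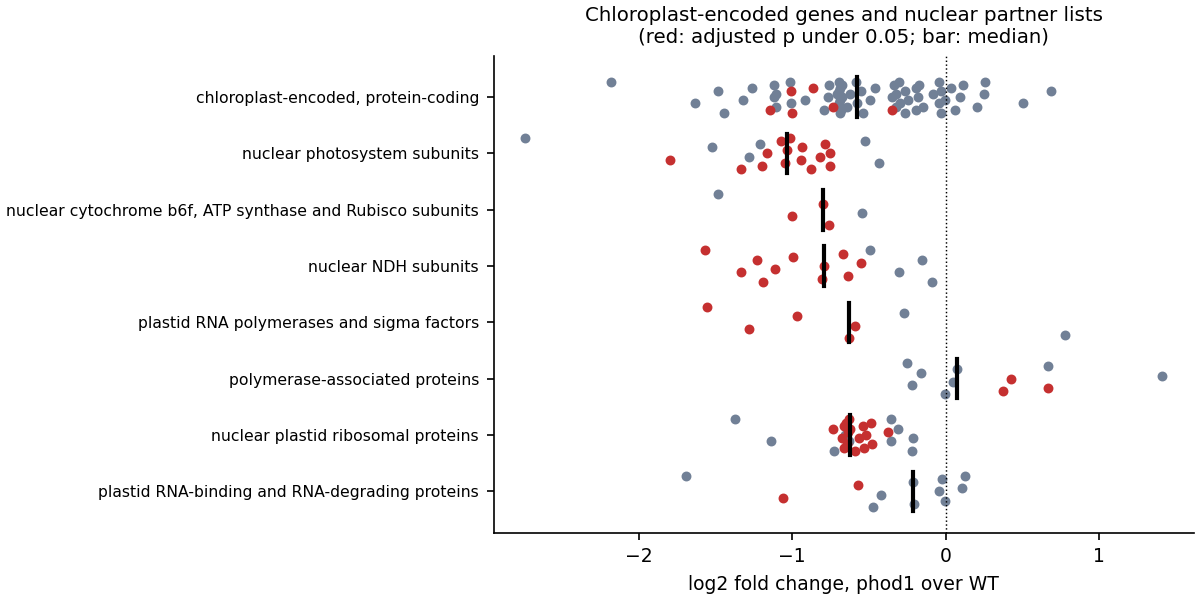
Log2 fold change of phod1 over WT for the tested protein-coding chloroplast genes and for 7 lists of nuclear partner genes, each point a gene, red where the adjusted p was under 0.05, with the median of each list as a bar. The medians run from -1.03 for nuclear photosystem subunits to 0.07 for polymerase-associated proteins, with the chloroplast-encoded genes at -0.57.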

How the data were processed

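RNA from shoots was extracted with a column plant kit and DNase, per the labels' protocols. Per the submitters' processing notes, the TAIR10 build was used together with StringTie, STAR and CASAVA 1.4, in roles that are not described; which counting command, strand setting and annotation were used is not stated. The authors deposited estimated counts per gene as whole numbers, and a table of their own comparison, whose log2 fold changes, standard errors and test statistics (scores), mean signal and p-values were copied and not recomputed. Genes were tested in edgeR 4.0.16 (R 4.3.3) with quasi-likelihood fits, TMM factors and filterByExpr (minimum count 10), on 10803 of 21693 rows, with Benjamini-Hochberg adjustment. DESeq2 1.42.0 was an alternative. The fit was tested on simulated data. The precision of low genes is limited by depth: the floor of 3 fragments is 12 units, or 0.255 to 0.403 CPM, and covers counting error only.

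Members, groups, partner lists and markers were chosen with earlier results of these data known. Named genes were the called members, in each group the 2 most abundant and the extremes of fold change, preset core genes, all members of transcription units with a called gene, and up to 4 called genes per partner list; 2 of the genes this rule names are counted in the totals but not reported here one by one. Chloroplast gene symbols are standard names of the locus identifiers; 12 of 12 that the authors' table also names were equal. Coding lengths and overlaps came from RefSeq TAIR10.1 by symbol.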

Additional observations from a re-analysis of the deposited data

How the results depend on the processing

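The count of chloroplast-encoded genes called lower, 6 in edgeR, was 6 with RLE size factors and with repeat copies summed. With the values divided by 4 it was 8 of 46 tested members, beside 1420 of 9820 genes. DESeq2 called 12, beside 1914 of 12142 genes, and the fit without a filter on low counts 4 of 123, beside 1274 of 13806 genes. The count was 1 without a scaling factor, beside 607 of 10803 genes. Relative to the chloroplast total it was 0, beside 332 of 10803 genes, and 1 member (clpP1) was higher. The chloroplast total is made of members, so calls and signs relative to it cannot show whether the members were lower as a set. Leaving out 1 library gave 2 to 4 members called lower, beside 1027 to 1180 of the 11021 to 11073 genes tested in those fits. With all libraries 1407 of 10803 genes were lower. The scaling factor and copy alternatives were chosen after seeing the data. Same-numbered libraries did not deviate together over the tested genes as a whole (correlations -0.00595, -0.0508 and 0.00739 over 10803 genes). The labels used here state no pairing, and these correlations cannot exclude a batch that touched fewer genes. With the replicate number as a block 1 member (atpE) was called lower, and the partner genes called higher, 3 in edgeR, were 1. Calls over all 10803 tested genes also fell with the block, from 1407 to 712 lower and from 1581 to 788 higher. Without a scaling factor 9 partner genes were higher, beside 33.2% of all tested genes. Counting only protein-coding rows, the share of all counts was 0.0340% in WT and 0.0285% in phod1. The cause of these changes was not tested.
Of the 80 tested members, the sign turned in 26 without a scaling factor and in 38 relative to the chloroplast total, each time from negative to positive, in 6 to 9 when 1 library was left out, in 2 with the block and in none with RLE size factors, DESeq2 or no filter. Among the genes named by the rule, these were as follows. Relative to the chloroplast total the log2 fold change was 0.30 for rpoB, 0.0888 for psbD, 0.44 for psaB, 0.48 for psaA, 0.44 for accD, 0.58 for cemA, 0.13 for psbJ, 0.51 for psbF, 0.34 for petB, 0.11 for rpoA, 0.0534 for rps3, 0.0136 for rps19, 0.35 for ndhB.1, 0.0883 for rpl32 and 0.0556 for psaC. Without a scaling factor it was 0.0375 for rpoB, 0.20 for psaB, 0.22 for psaA, 0.20 for accD, 0.34 for cemA, 0.23 for psbF, 0.0849 for petB and 0.14 for ndhB.1. It was -0.24 for psbH with the block and 0.19 for ndhB with copies summed. Leaving out 1 library gave ranges that crossed 0: matK -0.0189 to 0.23, psaB -0.514 to 0.0694, psaA -0.403 to 0.0930, accD -0.47 to 0.15, cemA -0.19 to 0.10, psbF -0.52 to 0.13, petG -0.39 to 0.41, psaJ -0.0633 to 0.56, rpl20 -0.30 to 1.02, clpP1 -0.10 to 0.18, psbH -0.96 to 0.43 and ndhB.1 -1.56 to 0.44.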
